A study of Mus musculus with 12 samples.

Results

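The 10 genes described here encode transcription factors of the MiT/TFE family, one of their target genes, and proteins that relay nutrient signals at the lysosome to these factors. They were *Mitf*, *Tfeb*, *Tfe3*, *Gpnmb*, *Flcn*, *Fnip1*, *Rragc*, *Rragd*, *Mcoln1* and *Lamtor1*, matched by symbol. They were chosen for their known roles, but with earlier results of these data known. All 10 were present among the 10697 genes measured. The cells were primary mouse adult fibroblasts (MAFs), which grow out of tissue pieces in culture, from WT animals of the C57BL6/j strain. In 1 group, thymol dissolved in DMSO was added to the medium at 100 µM for 24 h. The other group received DMSO alone in the same volume for the same time, so that both groups carried the solvent. Each group held 6 libraries, numbered 1 to 6. The labels do not say which libraries came from separate cultures or animals. The p-values therefore rest on the spread between these libraries, which may be technical.

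MiT/TFE factors bind short DNA elements and switch on genes for lysosomes and autophagy. When amino acids are plentiful, Rag GTPases held on the lysosome by the Ragulator complex recruit the kinase complex mTORC1 and present TFEB and TFE3 to it, and the phosphorylated factors are kept in the cytoplasm. Folliculin (FLCN) and its FNIP partner set the nucleotide state of RagC and RagD, and calcium released through the lysosomal channel mucolipin 1 has been linked to removal of the phosphates. These steps act on proteins and their location, which transcript levels do not measure.

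Transcripts were read at their 3′ ends by QuantSeq, which yields about 1 read per transcript whatever its length, so levels in log2 CPM (log2 of reads scaled to a common library size) can be compared between genes. Recovered depth was between 5435985 and 9049796 reads per library. Of 20 fibroblast markers 15 were measured, and *Lum*, *Fap*, *Tcf21*, *Pi16* and *Dpp4* were not among the genes analysed. Of 24 macrophage markers 23 were measured, and the lysozyme gene *Lyz2*, at 13.61 ± 0.059 log2 CPM with DMSO, lay above the collagen gene *Col1a1* at 11.95 ± 0.071 (SD over 6 libraries each). These are single genes of each list, and their levels do not give the share of each cell type. None of 12 melanocyte markers was among the genes analysed (0 of 12), *Tyr*, *Dct* and *Pmel* included. Of 12 osteoclast markers 7 were measured, without *Calcr*, *Dcstamp*, *Ocstamp*, *Oscar* and *Car2*. In such bulk RNA, fewer cells of a type and less RNA per cell cannot be told apart.

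With thymol, *Gpnmb* was the only one of the 10 genes past the threshold, an adjusted p-value of 0.05 in limma. Its log2 level was higher by 0.31 ± 0.050 (SE), with a limma adjusted p of 3.2e-05. In limma the variance of each gene is drawn towards a trend over all genes, so this SE does not rest on *Gpnmb* alone. Without the trend the SE was 0.073 and the limma adjusted p was 0.095. Of all genes, 2.22% passed in either direction, 0.654% higher and 1.57% lower. Of the 10 genes, 1 was called higher and 0 lower. The 10 were chosen with earlier results of these data known, so this count is no independent evidence. The 6 values of one group lay entirely beyond those of the other for *Gpnmb* alone among the 10, against 1.68% of all genes. Over the 10 genes the fold changes had a median of 0.038 on the log2 scale, beside 0.0026 over all genes. In absolute terms the medians were 0.093 and 0.098. *Mitf*, with a log2 fold change of 0.28, was the other of the 2 genes whose p-value was under 0.05 before adjustment. Of all 10697 genes, 1261 had such a p-value.

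The letters the factors bind were looked for in a window around each transcription start, from 250 bases before it to 50 after it. These windows come from RefSeq on GRCm38.p6, and all 10 genes matched, with 15 windows in all. The letters were the E-box CACGTG, its longer form TCACGTGA, which contains it, and the M-box TCATGTG, each on both strands. The E-box occurs in 7.15% of the 32851 windows of all genes, the longer form in 0.974% and the M-box in 3.77%. Counted by gene, these shares are 8.09%, 1.12% and 4.31%. Among the 10 genes the E-box was found in 4, which were *Fnip1*, *Rragc*, *Lamtor1* and *Mcoln1*. It occurred 75, 112 and 68 bases before the start in the first 3, and at 71 and 45 bases in *Mcoln1*. The copy of *Mcoln1* nearer the start lay in the longer form. *Lamtor1* also held the M-box, 98 bases before its start. The stretches around the matches are printed below because these are the members that carry the element, with the E-box in capitals.
Fnip1: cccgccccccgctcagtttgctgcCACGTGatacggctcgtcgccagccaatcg
Rragc: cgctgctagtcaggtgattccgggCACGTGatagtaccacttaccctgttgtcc
Lamtor1: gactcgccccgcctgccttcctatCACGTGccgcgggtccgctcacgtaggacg
Mcoln1 distal: cttagaaagggtcgcgcttgtCACGTGttc
Mcoln1 proximal: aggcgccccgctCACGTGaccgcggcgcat
All are on the plus strand of GRCm38.p6, at chr11:54438080-54438133, chr4:123917297-123917350, chr7:101905745-101905798, chr8:3500427-3500456 and chr8:3500462-3500491, in that order. The last one lies in the first exon, in the 5′ UTR, of a GENCODE vM21 transcript of *Mcoln1* that begins further upstream.

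None of the 3 elements was found in the window of *Gpnmb* (0 of 3), the member that rose. Its 200 bases before the start, at chr6:49036318-49036517 on the plus strand, are shown as the sequence beside the one call.
Gpnmb: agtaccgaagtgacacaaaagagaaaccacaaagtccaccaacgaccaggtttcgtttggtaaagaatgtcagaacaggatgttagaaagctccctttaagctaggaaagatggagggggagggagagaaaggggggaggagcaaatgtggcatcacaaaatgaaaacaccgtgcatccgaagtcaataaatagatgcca
The absence of these letters speaks of this window only. Of the 9 genes that did not pass the threshold, 4 held an E-box.

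**Figure D1:**
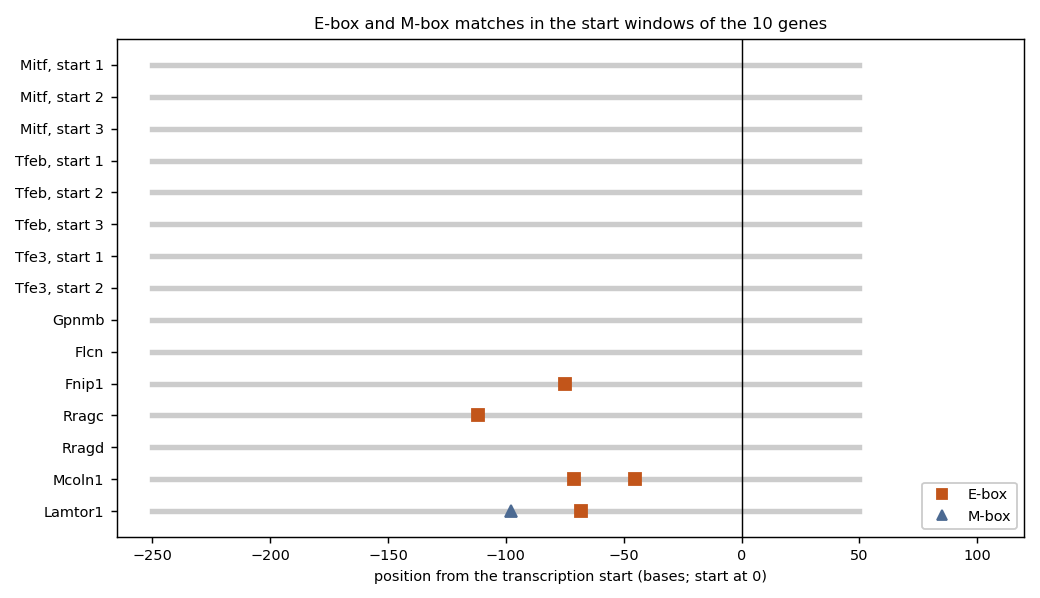
E-box (squares) and M-box (triangle) matches in the 15 start windows of the 10 genes, by position in bases from the transcription start, with several starts of one gene drawn on separate lines. Matches lie in *Fnip1*, *Rragc*, *Mcoln1* and *Lamtor1*, all within 112 bases before the start, and none in *Gpnmb*.

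Of the factors, *Mitf* (chr6:97807052-98021349, plus strand, gene positions here and below from GENCODE vM21 on GRCm38) encodes the member of the family best known from pigment cells and osteoclasts. With DMSO its lowest, median and highest levels were 4.86, 5.03 and 5.35 log2 CPM, and with thymol they were 5.21, 5.35 and 5.48. The groups overlapped through DMSO replicate 6 alone, which was the highest DMSO library, and the other 5 DMSO libraries lay below every thymol library. The log2 fold change of *Mitf* was 0.28 ± 0.11 (SE), with a 95% interval from 0.065 to 0.50 and a limma adjusted p of 0.22. The exact two-sided permutation test of this single gene gave p = 0.0065, over 924 relabellings of the libraries. That test was added after seeing the data, and its p-value is not adjusted over genes. Across the alternative fits the adjusted p ranged from 0.13 to 0.69, and the log2 fold change stayed between 0.22 and 0.34. The smallest adjusted p was reached without DMSO replicate 6. Reads at the 3′ end do not tell the alternative first exons of *Mitf* apart.

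*Tfe3* (chrX:7762560-7775202, plus strand) had the highest level of the factors. Its lowest, median and highest levels were 6.15, 6.31 and 6.38 log2 CPM with DMSO and 6.21, 6.32 and 6.46 with thymol, and the ranges overlapped almost wholly. The log2 fold change was 0.019 ± 0.079 (SE), with a 95% interval from -0.14 to 0.18 (limma adjusted p = 0.97). *Tfeb* (chr17:47737030-47792419, plus strand), the factor most often tied to lysosome formation, was the lowest of the 10 genes. Its levels were 2.59, 3.24 and 3.54 log2 CPM with DMSO and 2.98, 3.47 and 3.58 with thymol. The lowest values were those of DMSO replicates 3 and 6, and the groups overlapped. The log2 fold change of 0.25 ± 0.21 (SE) had a 95% interval from -0.18 to 0.68 (limma adjusted p = 0.74). It was 0.14 without DMSO replicate 3 and 0.12 with a pseudocount of 10. *Tfeb* rested on 45 to 84 reads per library, and its interval includes both 0 and a change of the size seen in *Gpnmb*.

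As shares of the reads of the family's 4 genes, *Tfe3* held 61.6% ± 2.18 with DMSO and 58.3% ± 1.45 with thymol (SD over 6 libraries each). *Mitf* held 26.0% ± 2.26 and 29.6% ± 2.01. *Tfeb* held 6.83% and 7.47%, and *Tfec*, the fourth factor, held 5.61% and 4.57%. These shares sum to the whole, so they move against each other, and they were not tested.

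*Gpnmb* (chr6:49036546-49070929, plus strand) encodes a transmembrane glycoprotein of lysosomes and the cell surface and is a known transcriptional target of the MiT/TFE factors. It was by far the highest of the 10 genes, with 10884 to 20685 reads per library. Its levels in DMSO replicates 1 to 6 were 11.12, 10.92, 10.86, 10.83, 10.77 and 11.03 log2 CPM. In thymol replicates 1 to 6 they were 11.36, 11.23, 11.21, 11.16, 11.16 and 11.25. All 6 thymol libraries lay above the highest DMSO library, and replicate 1 was the highest of both groups. The mean was 10.92 ± 0.13 with DMSO and 11.23 ± 0.077 with thymol (SD over 6 libraries each). The fold change was 1.24, with a 95% interval of the log2 value from 0.21 to 0.41, and *Gpnmb* ranked 35 by p-value among all genes. The exact two-sided permutation test gave p = 0.0022, the smallest value that 6 against 6 libraries can give. Groups without overlap always give this value, so it adds nothing to the separation. That test was added after seeing the data and is not adjusted over genes.

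The difference in *Gpnmb* was of like size in both parts of the series by library number, 0.33 among the odd-numbered libraries (limma adjusted p = 0.033) and 0.29 among the even-numbered ones (5.7e-05). Without both replicates numbered 1 it was 0.32 (adjusted p = 1.9e-06). It lost the call in 1 of 25 alternative fits, the one without a mean-variance trend, where the log2 fold change was the same and the adjusted p was 0.095. In the replicates numbered 1, where *Gpnmb* was highest in each group, *Mitf* was lowest in each group, at 4.86 log2 CPM with DMSO and 5.21 with thymol.

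**Figure D2:**
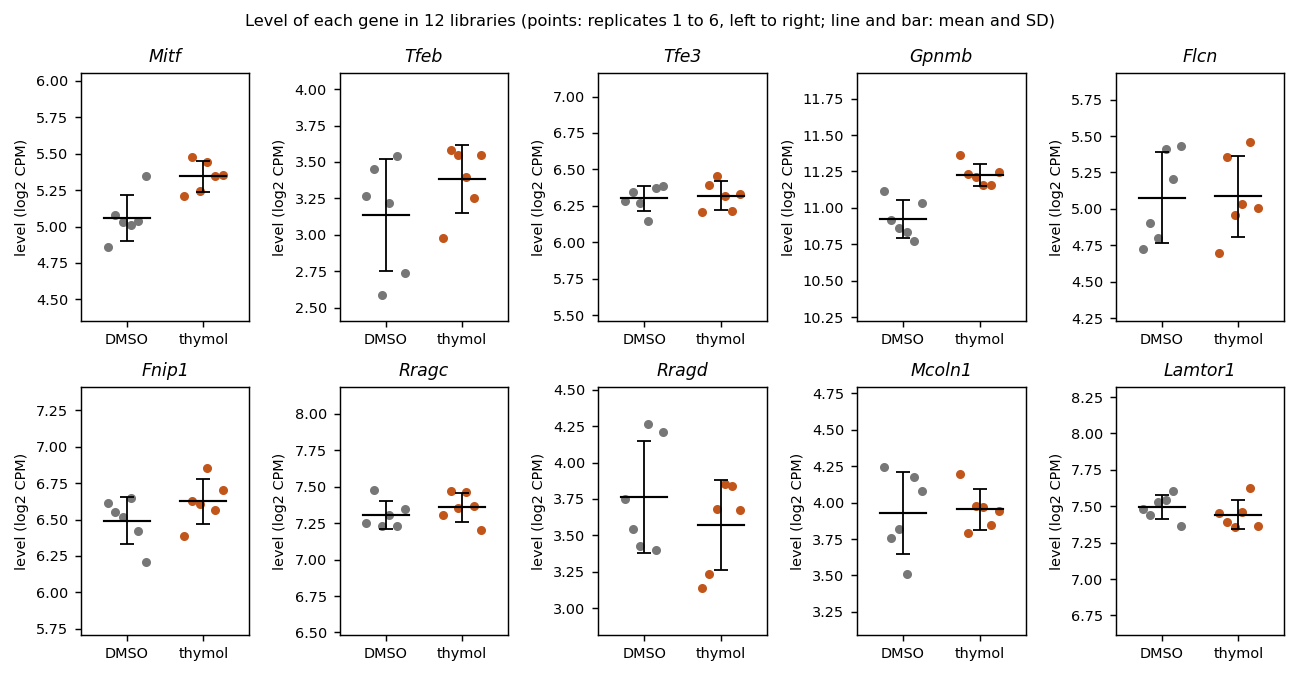
Level of each of the 10 genes in log2 CPM in the 6 DMSO (grey) and 6 thymol (orange) libraries, with a point for each replicate from 1 to 6, a line at the mean and a bar for the SD. Each panel spans the same range of log2 values around its own mean. The groups are apart in *Gpnmb*, where thymol libraries lie between 11.16 and 11.36 and DMSO libraries between 10.77 and 11.12.

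Macrophages and osteoclasts also express *Gpnmb*, and their markers were therefore set beside it. The summed level of the 23 macrophage markers was between 21023 and 23185 CPM with DMSO and between 21191 and 25475 CPM with thymol, with *Lyz2* the largest part. Of these markers 1 rose, *Ctss* (log2 fold change 0.26, limma adjusted p = 0.00014), and 2 fell. The larger of these changes was that of *Cd14*, a receptor for bacterial lipopolysaccharide, at -0.78 (limma adjusted p = 7.3e-10), and *Itgam*, an integrin subunit, was at -0.31 (limma adjusted p = 0.00071). In both, the thymol libraries all lay below the DMSO libraries. The called share of these markers was 13.0%, against 2.22% of all genes, and *Cd14* and *Itgam* are named after their values were seen. Replicate 1 had the highest sum in each group, as it had the highest *Gpnmb*. *Gpnmb* amounted to 8.96% ± 0.690 of the macrophage marker sum with DMSO and 10.6% ± 0.298 with thymol (SD over 6 libraries each). This ratio rests largely on *Lyz2*, the largest part of the sum, and does not measure *Gpnmb* per macrophage. The lowest thymol library, at 10.3%, lay above the highest DMSO library, at 9.94%. The 7 measured osteoclast markers summed to between 206.4 and 254.8 CPM with DMSO and between 254.6 and 277.1 CPM with thymol, so the sums overlapped narrowly. The log2 fold change was positive in 6 of them and negative in 1, at -0.72. Of these 7 markers 0 passed the threshold. In 4 the p-value was under 0.05 before adjustment, against 1261 of all 10697 genes. The 15 fibroblast markers summed to between 14125 and 15203 CPM with DMSO and between 13239 and 13906 CPM with thymol. Every thymol library thus lay below every DMSO library in this sum. Of these markers 0 rose and 2, *Col1a1* and *Col3a1*, fell (13.3%, against 2.22% of all genes). The part of these cell types in the result for *Gpnmb* was not tested.

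**Figure D3:**
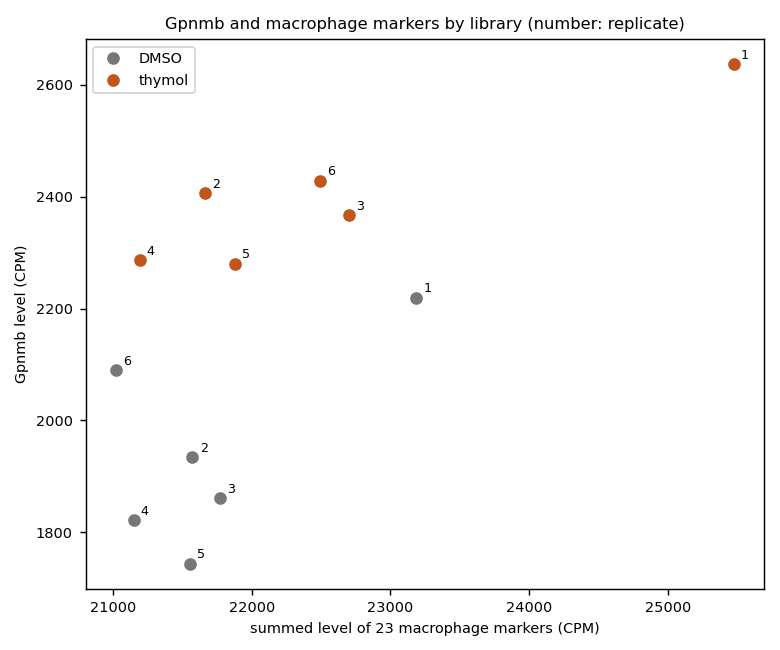
Level of *Gpnmb* (CPM, vertical axis) against the summed level of 23 macrophage markers (CPM, horizontal axis) in the 12 libraries, labelled by replicate number, with axes that do not begin at 0. The marker sums of the groups overlap between 21191 and 23185 CPM, while every thymol library lies above every DMSO library in *Gpnmb*.

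The genes whose levels over the 12 libraries were most like those of *Gpnmb* were *Mmp12*, *Atp6v0d2* and *Ctsb*. Pearson's r was 0.94, 0.93 and 0.93, and Spearman's rho was 0.92, 0.95 and 0.93. With each group centred on its mean, Pearson's r was 0.82, 0.75 and 0.72. These are descriptions over libraries that share a group difference, a scaling and the high values of the replicates numbered 1, and they were not tested. *Mmp12* encodes macrophage elastase and had a mean of 8.65 ± 0.15 log2 CPM with DMSO and a higher mean of 9.10 ± 0.20 with thymol (SD, n = 6 per group), with a limma adjusted p of 5.3e-06. *Atp6v0d2* encodes a subunit of the vacuolar proton pump that is abundant in osteoclasts, and *Ctsb* the lysosomal protease cathepsin B.

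Among the regulators, *Flcn* (chr11:59791408-59810016, minus strand) encodes folliculin, the GTPase-activating protein for RagC and RagD. Its lowest, median and highest levels were 4.72, 5.05 and 5.43 log2 CPM with DMSO and 4.70, 5.02 and 5.46 with thymol. The 2 groups covered the same range. The difference on the log2 scale was 0.0075 ± 0.13 (SE), with a 95% interval from -0.26 to 0.27 (limma adjusted p = 0.99), and its sign turned with median centring of the libraries (-0.0033).

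*Fnip1* (chr11:54438199-54518235, plus strand) encodes a folliculin-interacting protein. Its levels were 6.21, 6.53 and 6.65 log2 CPM with DMSO and 6.39, 6.62 and 6.86 with thymol, and the groups overlapped. Thymol minus DMSO gave a log2 fold change of 0.13 ± 0.081 (SE), with a 95% interval from -0.030 to 0.30 (limma adjusted p = 0.56). It was 0.0057 among the odd-numbered libraries but 0.26 among those with even numbers, and no test of this gap was made.

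The second partner, *Fnip2*, is not one of the 10 genes but completes this complex. Its lowest, median and highest levels were 4.94, 5.19 and 5.49 log2 CPM with DMSO and 5.42, 5.59 and 5.84 with thymol, with the groups overlapping. The rise was 0.37 ± 0.11 on the log2 scale (SE), with a limma adjusted p of 0.048. The call was lost in 16 of 25 alternative fits, in which the adjusted p reached 0.43. It was lost without thymol replicate 1 (0.36), 2 (0.32), 3 (0.37) or 6 (0.37), and without DMSO replicate 1 (0.36), 2 (0.36), 3 (0.39), 5 (0.31) or 6 (0.36), where the values are log2 fold changes. Of the reads of both partners, *Fnip1* held 70.8% ± 2.57 with DMSO and 67.2% ± 3.88 with thymol (SD over 6 libraries each), and the shares of the groups overlapped.

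The Rag GTPases pair a RagA or RagB subunit with RagC or RagD. *Rragc* (chr4:123917446-123936997, plus strand) had levels of 7.23, 7.28 and 7.48 log2 CPM with DMSO and 7.20, 7.36 and 7.47 with thymol. The groups overlapped over nearly their whole ranges. Its log2 fold change was 0.053 ± 0.065 (SE), with a 95% interval from -0.078 to 0.18 (limma adjusted p = 0.84). *Rragd* (chr4:32983037-33022180, plus strand), itself a known target of the MiT/TFE factors, was much lower and more variable. Its levels were 3.40, 3.65 and 4.26 log2 CPM with DMSO and 3.14, 3.68 and 3.85 with thymol. DMSO replicates 4 and 6 lay above every thymol library, and thymol replicates 1 and 2 lay below every DMSO library. The log2 fold change was -0.20 ± 0.20 (SE), with a 95% interval from -0.59 to 0.20 (limma adjusted p = 0.79), on 54 to 128 reads per library. It was -0.42 among the even-numbered libraries and 0.025 among the odd-numbered ones. *Rragc* held 92.1% of the reads of this pair with DMSO and 93.3% with thymol.

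*Lamtor1* (chr7:101905904-101926675, plus strand) encodes the lipid-anchored subunit that holds Ragulator on the lysosome. Its levels were 7.37, 7.50 and 7.60 log2 CPM with DMSO and 7.36, 7.42 and 7.62 with thymol. Here too the groups covered the same range. A log2 fold change of -0.052 ± 0.063 (SE) was found, with a 95% interval from -0.18 to 0.075 (limma adjusted p = 0.84). *Mcoln1* (chr8:3500457-3515232, plus strand) encodes mucolipin 1, the lysosomal calcium channel. Its levels were 3.51, 3.95 and 4.24 log2 CPM with DMSO and 3.79, 3.95 and 4.20 with thymol, and the thymol libraries lay within the DMSO range. Its log2 fold change was 0.023 ± 0.17 (SE), with a 95% interval from -0.31 to 0.36 (limma adjusted p = 0.98). The signs of *Tfe3*, *Flcn* and *Mcoln1* each depended on which library was left out.

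**Figure D4:**
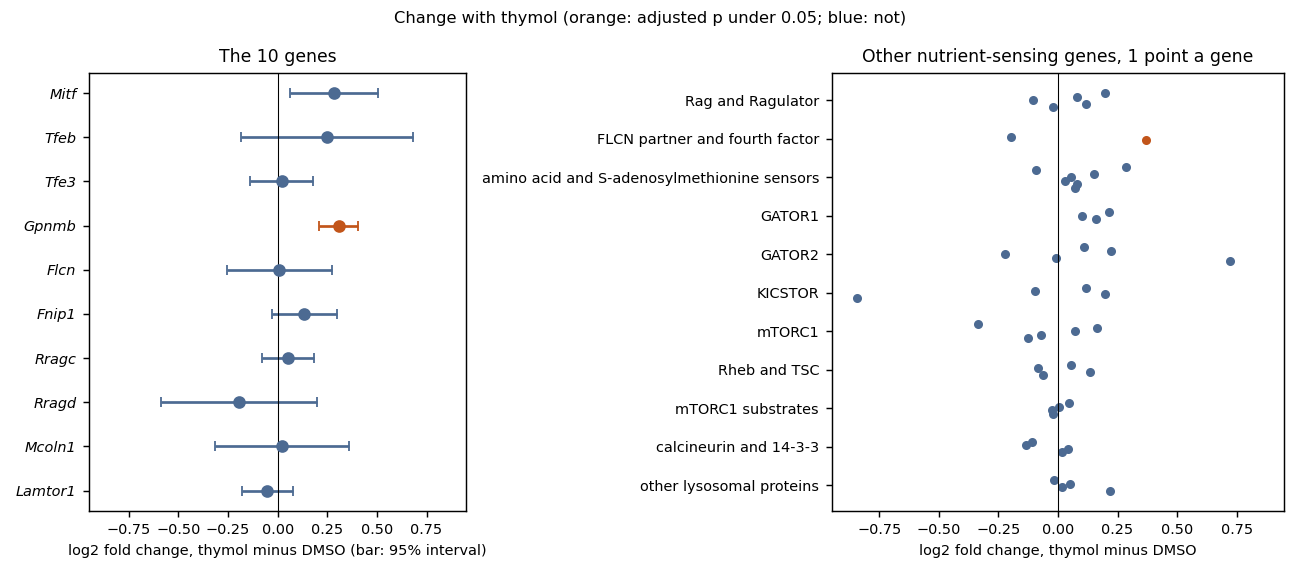
Log2 fold changes, thymol minus DMSO, of the 10 genes with their 95% intervals (left) and of 47 other nutrient-sensing genes by complex, with 1 point a gene and no interval (right), on the same horizontal scale. Orange marks an adjusted p under 0.05, which *Gpnmb* reached at 0.31 and *Fnip2* at 0.37.

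Ordered by mean level with DMSO, the genes ran *Gpnmb*, *Lamtor1*, *Rragc*, *Fnip1*, *Tfe3*, *Flcn*, *Mitf*, *Mcoln1*, *Rragd* and *Tfeb*. *Gpnmb* exceeded *Lamtor1* by a difference of 3.43 ± 0.20 on the log2 scale (SD, n = 6) and lay above it in all 6 libraries. Clear steps, with the higher gene above in 6 of 6 libraries, also parted *Rragc* from *Fnip1*, *Tfe3* from *Flcn* and *Mitf* from *Mcoln1*. *Flcn* and *Mitf* differed by 0.017 ± 0.24 and were each the higher in 3 libraries. *Lamtor1* and *Rragc*, *Fnip1* and *Tfe3*, and *Rragd* and *Tfeb* kept their order in 5 of 6 libraries, and *Mcoln1* and *Rragd* in 4 of 6.

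Around the 10 genes, 47 of 49 listed genes of lysosomal nutrient sensing were measured. Of these, 1 rose (2.13%, beside 2.22% of all genes), which was *Fnip2*, and 0 fell. In 7 of the 47 the p-value was under 0.05 before adjustment, against 1261 of all 10697 genes. The median log2 fold change of the 47 was 0.047. By complex, the other 5 Rag and Ragulator genes lay between -0.10 and 0.20, the 3 genes of GATOR1 between 0.099 and 0.21, and the 5 of mTORC1 between -0.34 and 0.16. The 4 genes of Rheb and TSC lay between -0.083 and 0.13. The smallest adjusted p-values in these complexes were 0.51, 0.61, 0.50 and 0.79. The widest ranges were those of GATOR2, from -0.22 to 0.72, and KICSTOR, from -0.84 to 0.20, whose smallest adjusted p-values were 0.18 and 0.21. The 4 genes of calcineurin and 14-3-3 proteins lay between -0.14 and 0.044, with a smallest limma adjusted p of 0.34. In 2 of these 4 the p-value was under 0.05 before adjustment, and 1 was lower with thymol without overlap. Among the sensors, *Bmt2*, which encodes the S-adenosylmethionine sensor SAMTOR, is named after its values were seen. Its lowest, median and highest levels were 5.83, 6.08 and 6.21 log2 CPM with DMSO and 6.22, 6.35 and 6.47 with thymol, without overlap. Its log2 fold change was 0.28 ± 0.083 (SE, limma adjusted p = 0.055). It passed the threshold in 5 of 25 alternative fits. Of the 47 genes, 1 (*Bmt2*) was higher with thymol without overlap and 1 was lower without overlap. Of all genes, 1.68% did not overlap.

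The target side was read from genes of the CLEAR network, the lysosomal genes tied to MiT/TFE factors, leaving out the 10 genes. Of 56 listed genes 54 were measured, and 6 rose and 2 fell (14.8%), with a median log2 fold change of 0.039. Of all genes 2.22% were called, 0.654% higher and 1.57% lower. The list was drawn up with earlier results of these data known, so its count is no independent evidence of a direction. *Atp6v0d2* rose most, from lowest, median and highest levels of 5.43, 5.77 and 5.95 log2 CPM to 6.35, 6.57 and 6.91. Its log2 fold change was 0.82 ± 0.094 (SE, limma adjusted p = 1.4e-08), and it passed in all 25 alternative fits. *Psap*, the precursor of the saposins that aid lipid breakdown, and *Ctsd*, the protease cathepsin D, rose by log2 fold changes of 0.34 and 0.31, without overlap of the groups. *Ctsb* rose by 0.19 ± 0.043 (SE, limma adjusted p = 0.0042), also without overlap, but its gene shares bases with *Fdft1* on the opposite strand, and whether the counting used strand is not given in the sources used here. Its call was lost in the odd-numbered libraries alone (adjusted p = 0.13), in the even-numbered alone (0.16) and without the mean-variance trend (0.18).

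*Atp6v1b2*, another subunit of the proton pump, rose by 0.20 ± 0.054 (SE, limma adjusted p = 0.025), with overlap. Its call was lost without thymol replicate 3 (0.17) and without DMSO replicates 2 (0.20), 4 (0.18) or 5 (0.20), each left out alone. In all it was lost in 8 of 25 alternative fits, among them the odd-numbered libraries alone (0.26, adjusted p = 0.13) and the even-numbered alone (0.14, adjusted p = 0.49). The sixth gene that rose was *Fnip2*. The genes that fell were *Scpep1*, a lysosomal carboxypeptidase (-0.27 ± 0.056, SE, limma adjusted p = 0.0024), and *Hif1a*, the hypoxia factor (-0.26 ± 0.070, limma adjusted p = 0.027). *Hif1a* was named outside the rule, to complete the count. It lost its call without thymol replicates 2 (-0.26), 3 (-0.24) or 6 (-0.22) and without DMSO replicates 2 (-0.25), 4 (-0.23) or 6 (-0.25). Among the odd-numbered libraries alone *Hif1a* was at -0.090 (adjusted p = 0.90) and among the even-numbered ones at -0.43, and 8 of 25 alternative fits lost the call. *Scpep1* lost its call in 2 of 25, the odd-numbered libraries alone (-0.20, adjusted p = 0.35) and the fit without the trend (adjusted p = 0.20).

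An E-box was found in 17 of the 42 CLEAR genes with a start window, 2 of the 5 that passed the threshold and 15 of the 37 that did not, against 8.09% of all genes with a window. CLEAR genes are known by this element, so its share is no finding. The 2 that passed with an E-box were *Ctsd*, which rose, and *Hif1a*, which fell. The longer form was found in 9 of the 42, against 1.12% of all genes. It was in 1 of the 5 that passed and 8 of the 37 that did not. Of the genes that rose, *Ctsd* held the longer form 99 bases before its RefSeq start, at chr7:142387908-142387937 on the minus strand. Another E-box of *Ctsd* lay 245 bases before that start, but the site with the longer form is the one shown. It is printed for comparison with the proximal site of *Mcoln1*, whose transcript did not pass the threshold.
Ctsd: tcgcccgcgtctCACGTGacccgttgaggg
This site lies in the first exon, in the 5′ UTR, of a longer GENCODE transcript of *Ctsd*.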

How the data were processed

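Primary MAFs treated with thymol or DMSO (6 libraries each) were profiled by QuantSeq 3′ mRNA sequencing. The authors aligned reads to GRCm38 with STAR 2.5.3, counted them per gene with HTSeq 0.6.1, removed genes with few reads (98.0% of the genes here reached their stated minimum of 30 reads in 6 libraries), scaled the libraries by TMM and tested the counts in edgeR. The deposited values are log2 CPM with a prior count, for 10697 genes. All 12 columns were matched to a library by name, and 0 were left out.

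Whole reads were recovered from the equal steps of the low values. Below 200 reads, 100% of the values were whole to within 0.02 of a read, and the prior was 1.93 reads in an average library, which pulls the changes of genes with few reads towards 0. Totals lay between 5435985 and 9049796 reads, PCR products whose counts speak of counting error only.

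The log2 values were fitted with limma 3.58.1 in R 4.3.3 (2 groups, mean-variance trend). Two-sided p-values were adjusted over all 10697 genes (Benjamini-Hochberg), with a threshold of 0.05. The procedure was tested on simulated data. Alternatives were a replicate block, odd or even library number, each library left out, pseudocounts of 1 and 10, a minimum mean of 4 log2 CPM, variance models, scalings and voom on the recovered reads. Leaving out both replicates numbered 1 was added after seeing the data. So was the exact permutation test, run on each of the 10 genes without adjustment.

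The 10 genes and all lists were chosen with earlier results of these data known. Named besides them are, per list, at most the 6 genes past the threshold with the smallest p-values, and the 3 genes most correlated with each of the 10 past it. Others are said to be named after their values were seen or outside the rule. Same-numbered libraries of both groups were compared by the correlation of their deviations from the group means, which exceeded 0.1 in 2 of 6 pairs, so the numbers were not taken to pair them. Windows and letters come from RefSeq on GRCm38.p6, gene positions from GENCODE vM21. No near-identical copies were examined.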

Additional observations from a re-analysis of the deposited data

Results flagged for a closer look

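Of 28 groups of 6 values examined (the levels of the 10 genes, read totals and marker sums), 3 held a value far from the others by Dixon's test, where chance gives about 1 in 20, or 1.4. Thymol replicate 5 had 9049796 recovered reads, and the next library of its group had 6585162. Its *Gpnmb* level was the lowest of the thymol group, and without it the log2 fold change of *Gpnmb* was 0.32. The summed macrophage markers were 23185 CPM in DMSO replicate 1, with the next library at 21768, and 25475 CPM in thymol replicate 1, with the next at 22700. *Gpnmb* was highest in these same libraries, and without both of them its log2 fold change was 0.32. The part of these libraries in other results was not tested beyond the fits that left them out.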

How the results depend on the processing

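Of the 10 genes, 1 passed the threshold under 24 of 25 alternatives, and 0 without the mean-variance trend, where 57 of all genes passed in place of 238. The count over all genes was 70 in the odd-numbered libraries alone and 172 to 270 when 1 library was left out, and the count of the 10 genes was then 1 throughout. With the replicate block 332 genes passed, among them 1 of the 10, 2 nutrient-sensing and 8 CLEAR genes. Whether the library numbers pair the libraries was not settled by the correlation check, and they were not taken to do so. In that check 2 of 6 libraries correlated best with their own number, and r was 0.27 for the replicates numbered 1. The nutrient-sensing count of 1 became 2 with a term for number parity and with the minimum mean of 4. It was 0 in the odd-numbered libraries alone, without the trend, with median centring, with quantile normalization, with voom and without both replicates numbered 1, and 0 to 2 with 1 library left out. The CLEAR count of 8 became 3 in the odd-numbered and 5 in the even-numbered libraries alone, 1 without the trend, and 5 to 8 with 1 library left out, with 5 without thymol replicate 3 or DMSO replicate 2. Fewer libraries enter the odd, even and left-out fits, and the cause of the other differences was not tested.

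Signs turned for 4 genes with small or imprecise changes. *Tfe3* was at -0.015 in the odd-numbered libraries and between -0.011 and 0.041 with 1 library left out. *Flcn* was at -0.12 in the even-numbered libraries, at -0.0033 with median centring and between -0.068 and 0.085 with 1 left out. *Rragd* was at 0.025 in the odd-numbered libraries. *Mcoln1* was at -0.070 in the odd-numbered libraries and between -0.061 and 0.086 with 1 left out. *Tfeb*, *Rragd* and *Mcoln1* had no value under the minimum mean of 4. Without the mean-variance trend the adjusted p of *Ctsd*, *Psap* and *Mmp12* was 0.066, 0.099 and 0.076, and each kept its call in the other 24 alternatives.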
